A study of Mus musculus with 17 samples.

Results

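The creatine kinase system and the transfer of ATP were followed in the pressure-overloaded mouse heart through 8 genes. These were taken by symbol: Ckm, Ckb, Ckmt2, Slc6a8, Gamt, Ak1, Slc25a4 and Slc25a5, which are 8 of the 21798 genes in the deposited table, and each of the 8 was among the 16218 genes with enough signal to be tested. RNA came from the left ventricular apex of male C57Bl6/J mice, operated at 7 to 8 weeks of age and killed 3 weeks later. Surgery was transverse aortic constriction (TAC), in which a suture narrows the aortic arch and loads the left ventricle, or a Sham operation without the ligature. From 1 week after surgery mice were gavaged with 6 doses of saline vehicle (Veh) or of 29P at 50 μg/kg, an oral prodrug of an RGD mimetic that binds integrins. The 17 libraries comprised 3 with TAC and Veh, 6 with TAC and 29P, 5 with Sham and Veh and 3 with Sham and 29P. Before its analysis the paper dropped a Sham 29P and a TAC Veh library for too few reads. Another TAC Veh library was dropped because it clustered with Sham mice, so membership of the TAC Veh group rests in part on expression. The effect of that choice on the comparisons below was not tested. No group carried a transgene, and each sample was whole tissue holding all cell types of the ventricle.

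A beating heart holds little ATP and renews it continuously. Creatine kinase in the mitochondria charges creatine with the phosphate of newly made ATP, phosphocreatine diffuses to the myofibrils and ion pumps, and cytosolic creatine kinase passes the phosphate back to ADP there. Cardiac muscle does not make enough creatine and takes it up from the blood. A loss of creatine, of creatine kinase activity and of the transporter protein is a known feature of failing hearts, and a return of the B subunit, which precedes the M subunit in development, is known in hypertrophy.

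Each gene has a distinct place in that circuit. Ckm encodes the muscle (M) subunit of cytosolic creatine kinase, on chr7:19404776-19422841 (plus strand, mm10). Ckb encodes the brain-type (B) subunit, on chr12:111669361-111672338 (minus strand). Ckmt2 encodes the sarcomeric mitochondrial enzyme, on chr13:91853387-91876885 (minus strand). Slc6a8 encodes the creatine transporter of the cell membrane, on chrX:73673150-73682502 (plus strand), and Gamt the methyltransferase that finishes creatine synthesis, on chr10:80258151-80261012 (minus strand). Ak1 encodes cytosolic adenylate kinase, which makes ATP and AMP from ADP, on chr2:32621758-32635058 (plus strand). Slc25a4 and Slc25a5 encode ADP/ATP carriers of the inner mitochondrial membrane, the first typical of heart and skeletal muscle and the other of many cell types, on chr8:46206797-46211284 (minus strand) and chrX:36795651-36798807 (plus strand). An antisense gene, A930016O22Rik, overlaps Ckm and was listed at 12.5 to 24.7 CPM (read counts scaled to a common library total); the strand setting of the counting is not given in the sources used here, so part of either value could belong to the other. Ckb and Slc25a5 have pseudogenes in the genome, and how reads shared with them were assigned is likewise not given.

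The isoform pairs Ckm and Ckb, and Slc25a4 and Slc25a5, carry the results below, so their promoters are shown to let their letters be compared. Each window runs from 250 bases before to 50 bases after the RefSeq start site (GRCm38.p6, 300 bases, 5′ to 3′ on the gene's own strand). RefSeq windows were found for 7 of the 8 genes, Slc6a8 being the other. Capitals mark matches, on either strand, to the E-box CANNTG bound by helix-loop-helix factors. They also mark the element AAGGTCA of oestrogen-related receptors. The TATA box was searched as TATAAA and the GC box of Sp1 as GGGCGG, and each motif was counted on its own.
Ckm, chr7:19410844-19411143, plus strand: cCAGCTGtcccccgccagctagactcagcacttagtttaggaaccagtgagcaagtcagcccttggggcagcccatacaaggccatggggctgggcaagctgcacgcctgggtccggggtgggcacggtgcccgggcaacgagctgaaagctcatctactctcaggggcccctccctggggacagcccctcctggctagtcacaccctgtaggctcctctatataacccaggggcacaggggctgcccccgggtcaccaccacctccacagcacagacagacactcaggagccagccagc
Ckb, chr12:111672289-111672588, minus strand: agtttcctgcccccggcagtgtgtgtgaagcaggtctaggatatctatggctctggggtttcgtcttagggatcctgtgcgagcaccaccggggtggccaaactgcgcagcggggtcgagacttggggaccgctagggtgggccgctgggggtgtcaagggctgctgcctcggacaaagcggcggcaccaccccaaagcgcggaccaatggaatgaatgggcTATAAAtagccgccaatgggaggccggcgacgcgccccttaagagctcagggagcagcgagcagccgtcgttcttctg
Slc25a4, chr8:46211013-46211312, minus strand: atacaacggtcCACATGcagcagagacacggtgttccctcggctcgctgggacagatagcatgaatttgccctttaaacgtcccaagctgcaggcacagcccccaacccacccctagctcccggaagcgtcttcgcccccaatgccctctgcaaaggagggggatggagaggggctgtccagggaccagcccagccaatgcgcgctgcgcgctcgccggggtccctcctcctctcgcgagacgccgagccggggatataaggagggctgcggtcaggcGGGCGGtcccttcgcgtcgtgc
Slc25a5, chrX:36795347-36795646, plus strand: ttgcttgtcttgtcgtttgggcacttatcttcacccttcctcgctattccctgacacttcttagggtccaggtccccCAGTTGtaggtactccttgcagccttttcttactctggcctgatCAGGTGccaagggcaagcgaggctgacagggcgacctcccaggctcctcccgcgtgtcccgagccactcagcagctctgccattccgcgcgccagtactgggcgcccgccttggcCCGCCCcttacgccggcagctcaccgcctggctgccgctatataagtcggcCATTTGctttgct
Ckm held 1 E-box and Ckb 1 match to TATAAA. The windows of Ckm, Slc25a4 and Slc25a5 hold the unmarked letters atataa, a near form that was not searched. The TATAAA count therefore does not show that these windows lack a TATA box. Slc25a4 held 1 E-box and 1 GC box, and Slc25a5 held 3 E-boxes and 1 GC box. These were set beside 32851 mouse promoter windows of this length, from which those of 1 chromosome were left out. Among them 72.3% held an E-box, 35.7% a GC box, 13.6% a TATA box and 4.72% AAGGTCA. The E-box and GC box matches are therefore common ones.

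Estimated depth was 14.2 to 23.8 M reads per library, so that 1 CPM stands for about 14.2 to 23.8 reads. Mitochondrially encoded transcripts took 29.1 to 40.0% of CPM in Sham libraries and 23.6 to 29.4% in TAC libraries. CPM sums to a fixed total, and the median log2 difference of all genes tested was 0.35 for TAC against Sham with Veh and 0.37 with 29P. With TMM factors, which centre the bulk of genes, it was 0.01 and 0.03. Changes are therefore given on both scales. Libraries S19 and S20 (Sham Veh) and S18 (TAC 29P) held atrial transcripts (Myl4, Myl7, Sln and others) at a summed 2794, 2252 and 1785 CPM against a median of 21.5 CPM over the 17 libraries. Library S14 (Sham 29P) was the shallowest, had the largest mitochondrial share (40.0%) and was the lowest of the 17 for 5 of the 8 genes. Cardiomyocyte markers were high in all libraries, with 4.31e+04 to 6.02e+04 CPM summed over 12 genes, whereas fast skeletal muscle markers summed to at most 8.62 CPM.

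Compared per kilobase of the principal transcript, levels in Sham Veh ran in the order Slc25a4, Ckmt2, Ckm, Ak1, Slc25a5, Slc6a8, Ckb and Gamt. Slc25a4 stood at 1602 ± 121 CPM per kilobase (SD, n = 5) and Ckmt2 at 848 ± 105. Ckm followed at 388 ± 71.8, and Ak1 and Slc25a5 lay next to each other at 132 ± 27.1 and 125 ± 12.4, which overlapped between libraries. Slc6a8 stood at 25.7 ± 6.06, Ckb at 17.8 ± 4.58, again with overlapping ranges, and Gamt at 2.25 ± 0.910. The order was the same in all 4 groups. Per kilobase of coding sequence Ckm and Ckmt2 lay closer, at 929 and 999.7 in Sham Veh. The order of their group means turned in TAC, where Ckm made up 50.1% (Veh) and 49.9% (29P) of the creatine kinase genes. Ckmt2 made up 47.8% and 48.2% there, and the ranges of the 2 genes overlapped. In TAC Veh Ckm stood at 970 ± 146 and Ckmt2 at 921 ± 55.6.

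**Figure D1:**
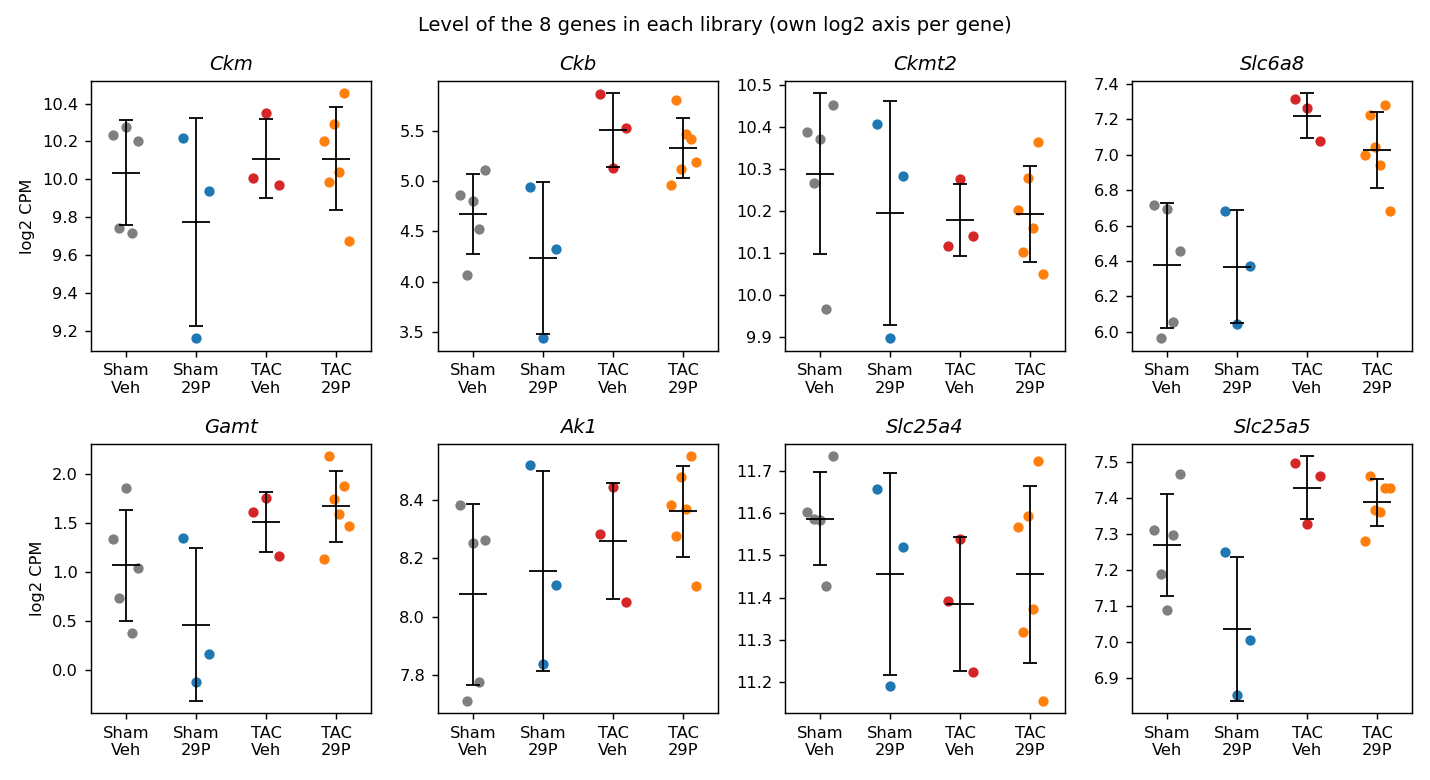
Level of each of the 8 genes in each library, as log2 CPM with a separate axis per gene, for the 4 groups on the horizontal axis. Points are libraries, the long dash is the group mean and the bars are ± 1 SD; all 3 TAC Veh points of Ckb and Slc6a8 lie above all 5 Sham Veh points, and the lowest Sham 29P point in most panels is library S14.

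With vehicle, the question was what aortic constriction did to these genes. Slc6a8 and Ckb were higher in TAC Veh than in Sham Veh, by 1.79-fold and 1.78-fold, while Ckm, Ckmt2, Gamt, Ak1 and the carriers did not pass the test on the CPM scale. The 2 called genes of 8 compare with 22.5% of all 16218 genes called higher (and 1.91% called lower), a share close to theirs.

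Slc6a8, the creatine transporter, stood at 160, 154 and 135 CPM in the TAC Veh libraries S2, S12 and S16 and at 105, 62.4, 104, 66.4 and 87.8 CPM in the 5 Sham Veh libraries. The groups did not overlap, the lowest TAC library lying above the highest Sham library. The log2 difference was 0.84 (SE 0.18, limma adjusted p = 0.00663); with TMM factors it was 0.51 (limma adjusted p = 0.0292). It was called in 7 of the 8 fits that left out 1 library of the comparison, the exception being the fit without S2 (0.80, limma adjusted p = 0.0547). Without the 3 libraries holding atrial transcripts it was 0.76 (limma adjusted p = 0.0238), or 0.45 if TMM factors were applied too (limma adjusted p = 0.0631).

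Ckb, the B subunit, stood at 58.2, 35.1 and 46.0 CPM in TAC Veh S2, S12 and S16 and at 29.1, 16.7, 27.8, 23.0 and 34.6 CPM in Sham Veh. These groups did not overlap either, but S12 exceeded the highest Sham library, S20, by little. The log2 difference was 0.83 (SE 0.29, limma adjusted p = 0.0428). The call was less firm than that of Slc6a8: it was kept in 4 of the 8 fits without 1 library of the comparison, being lost without S2 (0.66, limma adjusted p = 0.208), S16 (0.83, limma adjusted p = 0.0927), S6 (0.68, limma adjusted p = 0.0982) or S19 (0.80, limma adjusted p = 0.0791). It was also lost without S8, S9 or S11 of TAC 29P, which enter only through the shared spread (limma adjusted p = 0.0511 to 0.0525). With TMM factors it was 0.50 (limma adjusted p = 0.170), and without the libraries holding atrial transcripts 0.93 (limma adjusted p = 0.0674). Among all genes, 27.6% were higher in TAC Veh without overlap, so that 2 of 8 is again a share near that of all genes.

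Ckmt2 and Slc25a4, the abundant mitochondrial members, showed the dependence on scaling in the other direction. Ckmt2 stood at 1112, 1241 and 1130 CPM in TAC Veh and at 1340, 1232, 1324, 1001 and 1400 CPM in Sham Veh, a log2 difference of -0.11 (SE 0.13, limma adjusted p = 0.519). Slc25a4 stood at 2686, 2977 and 2390 CPM in TAC Veh and at 3110, 3076, 3069, 2753 and 3409 CPM in Sham Veh, a log2 difference of -0.20 (SE 0.14, limma adjusted p = 0.265). On CPM these groups overlapped and neither gene was called. With TMM factors both were called lower, Ckmt2 by -0.44 (limma adjusted p = 0.0260) and Slc25a4 by -0.53 (limma adjusted p = 0.0273), where 5.64% of all genes were called lower and 3.91% higher. Thus the TAC differences of the mitochondrial creatine kinase and the muscle-type carrier lay below the median difference of all genes (0.35), and whether they passed depends on which scale is used.

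The remaining genes did not pass the test with vehicle on either scale. Ckm had a log2 difference of 0.07 (95% interval -0.38 to 0.53), and libraries ran from 842 to 1240 CPM in Sham Veh and from 1001 to 1305 CPM in TAC Veh. Ak1 had 0.18 (-0.18 to 0.54), Slc25a5 had 0.16 (-0.05 to 0.37) and Gamt had 0.44 (-0.30 to 1.18). The interval of Gamt, at a group mean of 2.23 CPM in Sham Veh, is the widest of the 8.

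In mice given 29P, 4 of the 8 genes were higher in TAC than in Sham, among 31.4% of all genes called higher and 1.12% called lower. These were Gamt, by 2.31-fold, Ckb by 2.13-fold, Slc6a8 by 1.58-fold and Slc25a5 by 1.28-fold. Each of the 4 calls ended when library S14, 1 of only 3 Sham 29P libraries, was left out, where 1044 of 16179 genes remained called higher.

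Ckb stood at 31.2 to 55.8 CPM in the 6 TAC 29P libraries (median 39.6) and at 30.8, 10.8 and 20.03 CPM in Sham 29P S4, S14 and S15. All 6 TAC libraries were above the 3 Sham libraries, though S1 and S4 were nearly level. The log2 difference was 1.09 (SE 0.28, limma adjusted p = 0.0109), 0.75 with TMM factors (limma adjusted p = 0.0379) and 0.69 without S14 (limma adjusted p = 0.105). It was the single member of the 8 still called with TMM factors, which called 6.03% of all genes higher.

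Slc6a8 ran from 103 to 155 CPM in TAC 29P (median 130) and stood at 103, 66.1 and 82.9 CPM in Sham 29P. The groups touched, since S18 of TAC 29P and S4 of Sham 29P had the same value to 3 digits. Their log2 difference was 0.66 (SE 0.18, limma adjusted p = 0.0140), 0.32 with TMM factors (limma adjusted p = 0.1304) and 0.50 without S14 (limma adjusted p = 0.111).

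Gamt, of creatine synthesis, ran from 2.19 to 4.53 CPM in TAC 29P (median 3.18) and stood at 2.54, 0.916 and 1.11 CPM in Sham 29P. One Sham library, S4, lay inside the TAC range. On the log2 scale this was 1.21 (SE 0.34, limma adjusted p = 0.0171), 0.87 with TMM factors (limma adjusted p = 0.0695) and 0.92 without S14 (limma adjusted p = 0.126), and the call also ended without S15 (1.06, limma adjusted p = 0.0635).

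Slc25a5, the widely expressed carrier, ran from 156 to 176 CPM in TAC 29P (median 169) and stood at 152, 115 and 128 CPM in Sham 29P. No overlap was seen, and with Ckb these were 2 of 8 genes higher without overlap, beside 25% of all genes. The log2 difference was 0.35 (SE 0.10, limma adjusted p = 0.0161), beside a median of 0.37 for all genes in this comparison, and 0.01 with TMM factors (limma adjusted p = 0.937).

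Ckm, Ckmt2, Ak1 and Slc25a4 were not called in 29P-treated mice. Ckmt2 and Slc25a4 had log2 differences of 0.00 on CPM (95% intervals -0.26 to 0.25 and -0.28 to 0.28), and with TMM factors -0.34 each (limma adjusted p = 0.0650 and 0.122), where 4.59% of all genes were called lower. Ckm had 0.34 (-0.10 to 0.77) and Ak1 had 0.20 (-0.14 to 0.55). Neither mitochondrial gene passed the adjusted threshold on either of those scales here, and the difference between the treatments in the effect of TAC passed for 0 of the 8 genes even without adjustment, as against 2.84% of all genes. The smallest unadjusted limma p was that of Gamt (0.137, at a difference of 0.76).

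**Figure D2:**
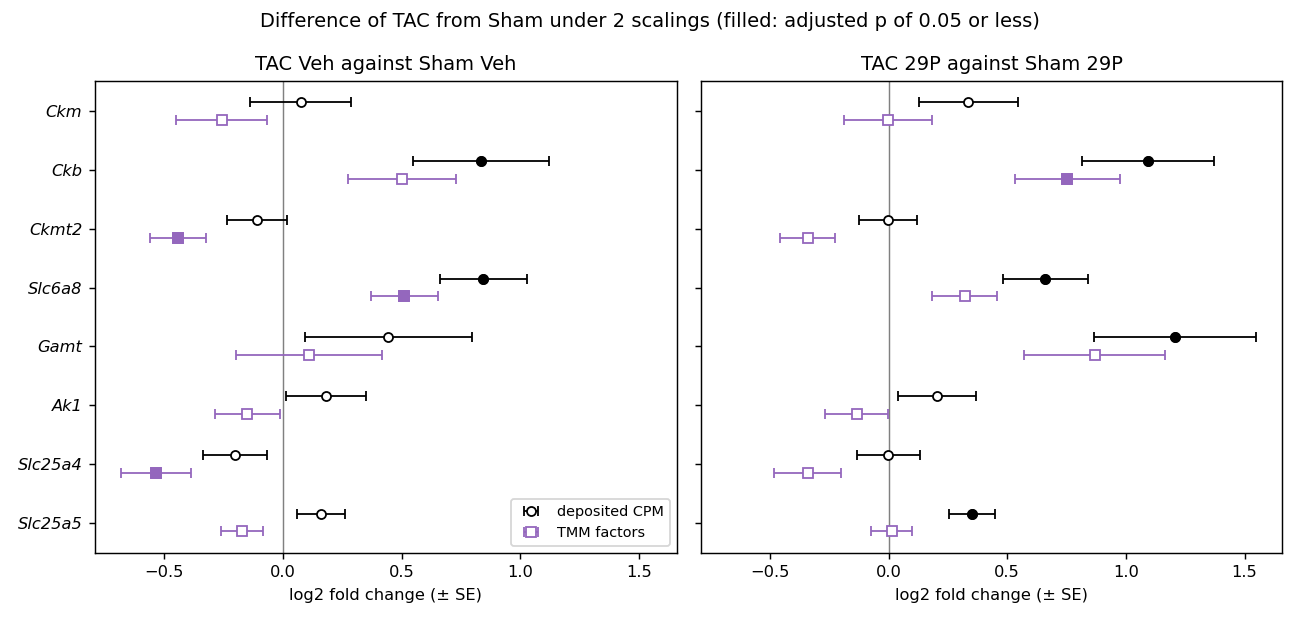
Log2 fold change of each gene, TAC over Sham, for Veh (left) and 29P (right); circles are deposited CPM, squares CPM with TMM factors, bars ± SE, and filled symbols have an adjusted p of 0.05 or less. Every square lies to the left of its circle, and Ckb and Slc6a8 stay right of 0 on both scales while Ckmt2 and Slc25a4 lie left of 0 with TMM factors.

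The sample descriptions carry a number whose meaning is not given, and these numbers fall into 4 runs (libraries S1 to S11, S12 to S14, S15 to S16 and S18 to S20) that each hold both surgeries. Run 4 consists of the same libraries that held atrial transcripts, so these 2 checks are not separate. Run 1 holds every TAC 29P library but S18. Run 3 sets a TAC Veh library against a Sham 29P library, and run 4 a TAC 29P library against Sham Veh libraries. Within runs 3 and 4 the effect of surgery therefore cannot be told apart from that of treatment. TAC minus Sham, with both treatments pooled, was 0.82, 1.02, 1.20 and 0.37 on the log2 scale for Ckb in the 4 runs, and 0.68, 0.90, 0.70 and 0.43 for Slc6a8. Gamt gave 0.55, 0.89, 1.01 and 0.77. These 3 genes were higher in TAC in every run on CPM, although runs 2 to 4 hold 2 or 3 libraries each and runs 3 and 4 cross the treatments. Slc25a5 was too (0.15, 0.36, 0.46 and 0.05). The share of all genes that did so was not counted, and their median difference on this scale was 0.35 with Veh and 0.37 with 29P. With the run as a covariate, the vehicle differences were 0.96 for Ckb (limma adjusted p = 0.0473) and 0.78 for Slc6a8 (limma adjusted p = 0.0219), and 0 of the 4 genes were called in the 29P comparison, where 679 of 16218 genes were called higher.

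No difference between 29P and Veh passed the test for any of the 8 genes. Between TAC 29P and TAC Veh, limma called 0 of 16218 genes (0%) and 0 of the 8 members, and at an unadjusted p of 0.05 it passed 321 genes (1.98%) and still 0 members. Ckb differed by -0.18 on the log2 scale (95% interval -0.76 to 0.40), Slc6a8 by -0.19 (-0.57 to 0.18) and Gamt by 0.16 (-0.56 to 0.88). The intervals of Ckmt2 (-0.24 to 0.27), Slc25a5 (-0.25 to 0.16) and Slc25a4 (-0.21 to 0.35) were narrower, so a change of 1.5-fold lies outside them, whereas for Ckb and Gamt it does not. Between Sham 29P and Sham Veh, 1 of 16218 genes (0.00617%) and 0 members were called. Without adjustment, Slc25a5 alone of the 8 passed, with an unadjusted limma p of 0.0330 for a log2 difference of -0.23 (limma adjusted p = 0.651), and 5.89% of all genes were lower by the same rule.

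Ratios of 2 genes within a library do not depend on its scaling. The B subunit was compared with the M subunit, as CPM of Ckb over CPM of Ckm. It was 5.65, 2.69 and 4.60% in TAC Veh S2, S12 and S16 and 2.42, 1.95, 2.25, 2.74 and 2.94% in Sham Veh, where S12 lay inside the Sham range. The log2 ratio differed by 0.76 (SE 0.34, exact two-sided permutation p = 0.0536, smallest possible 0.0179). With 29P it was 2.65 to 5.50% in TAC (log2 median -4.80) and 2.58, 1.89 and 2.04% in Sham, a log2 difference of 0.76 (SE 0.22, exact permutation p = 0.0238, smallest possible 0.0119), without overlap. After adjustment over the 16 ratio tests both exact permutation p-values became 0.143, which was also the lowest of the 16, so no ratio passed.

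The carriers gave a ratio in the same direction. Slc25a5 over Slc25a4 was 6.72, 5.40 and 7.37% in TAC Veh and 5.10, 4.74, 4.43, 5.71 and 5.19% in Sham Veh, where S12 again lay inside the Sham range. The log2 difference was 0.36 (SE 0.15, exact permutation p = 0.0357, adjusted 0.143). With 29P it was 5.09 to 7.56% in TAC (log2 median -4.12) and 4.72, 4.93 and 4.38% in Sham, a log2 difference of 0.35 (SE 0.11, exact permutation p = 0.0357, adjusted 0.143), without overlap.

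Both remaining ratios gave negative differences with Veh, and the second a positive one with 29P. Mitochondrial Ckmt2 over Ckm differed by -0.18 with Veh (SE 0.10, exact permutation p = 0.179) and by -0.34 with 29P (SE 0.18, exact permutation p = 0.0476, adjusted 0.143). Gamt over Slc6a8, synthesis over uptake, differed by -0.40 with Veh (SE 0.18, exact permutation p = 0.0893) and by 0.55 with 29P (SE 0.31, exact permutation p = 0.0476, adjusted 0.143). Between 29P and Veh no ratio had an exact permutation p under 0.0952 in TAC or under 0.107 in Sham.

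**Figure D3:**
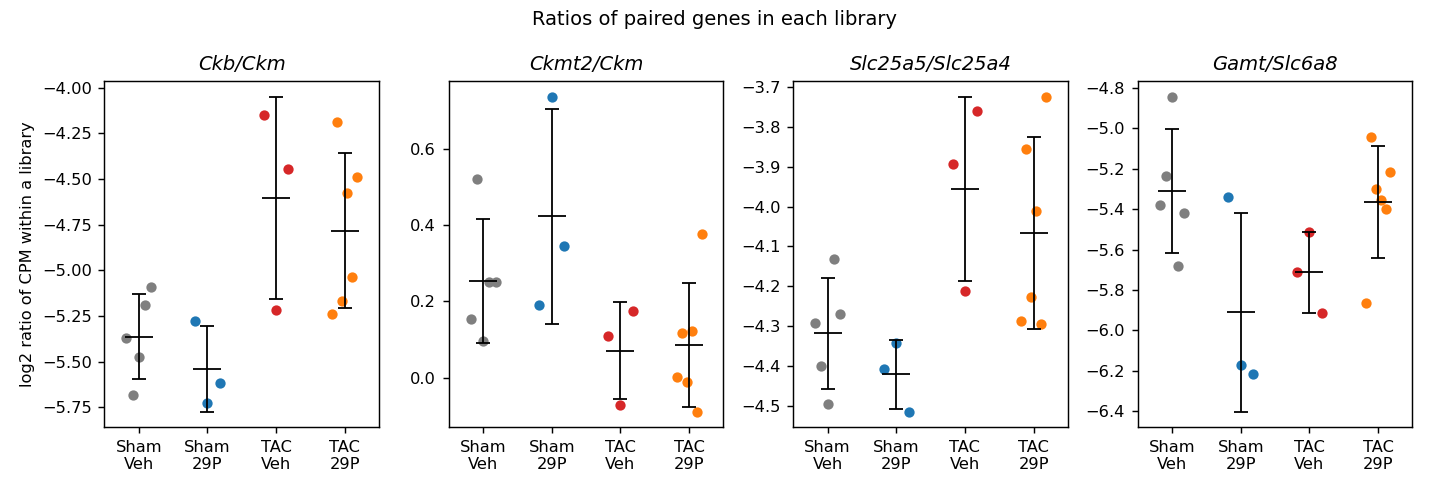
Log2 of 4 ratios of CPM within each library (vertical axis, a separate one for each ratio) for the 4 groups on the horizontal axis; points are libraries, dashes means and bars ± 1 SD. TAC points of Ckb/Ckm and Slc25a5/Slc25a4 reach above the Sham points, and some TAC points of each remain among them.

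Per kilobase of transcript, Ckb made up 2.63 ± 0.809% of the 3 creatine kinase genes in TAC Veh (SD, n = 3) and 2.29 ± 0.591% in TAC 29P (n = 6), against 1.42 ± 0.267% in Sham Veh (n = 5) and 1.17 ± 0.336% in Sham 29P (n = 3). It remained the smallest of the 3 in every group. Ckmt2 made up 64.2 ± 1.58%, 64.6 ± 2.29%, 67.7 ± 2.48% and 70.3 ± 4.13% in the same order, and Ckm the rest. Slc25a5 made up 7.24 ± 0.644% of the 2 carriers in Sham Veh, 6.77 ± 0.379% in Sham 29P, 9.15 ± 1.29% in TAC Veh and 8.55 ± 1.33% in TAC 29P.

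Both isoform ratios were uneven among TAC hearts, and the same libraries were high in each. Libraries S2, S16, S3, S9 and S18 had Ckb/Ckm ratios of 4.20 to 5.65%, and the other 4 TAC libraries (S1, S8, S11 and S12) 2.65 to 3.05%, with none between. The 5 former also held the 5 highest Slc25a5/Slc25a4 ratios of the 17 libraries, 6.20 to 7.56%, against 5.09 to 5.40% in the other 4 TAC libraries. The high libraries were 2 of 3 TAC Veh and 3 of 6 TAC 29P, and came from runs 1, 3 and 4. Myh7 over Myh6, the fetal over the adult myosin heavy chain and a marker of hypertrophic stress, was 30.1% in S2, 26.1% in S3, 15.9% in S9 and lower in S16 and S18 (lowest 12.03%), and it was 6.62, 7.54, 8.25 and 15.6% in S1, S8, S11 and S12. S12 was thus low for both isoform ratios and not for the myosin ratio. The summed fibroblast markers followed the same division, at 4109, 3517, 3974, 2772 and 3572 CPM in S2, S16, S3, S9 and S18 and at 1498, 1907, 2140 and 2379 CPM in S1, S8, S11 and S12, and their part in the ratios was not tested. The relation of these ratios within each set of libraries was not tested.

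**Figure D4:**
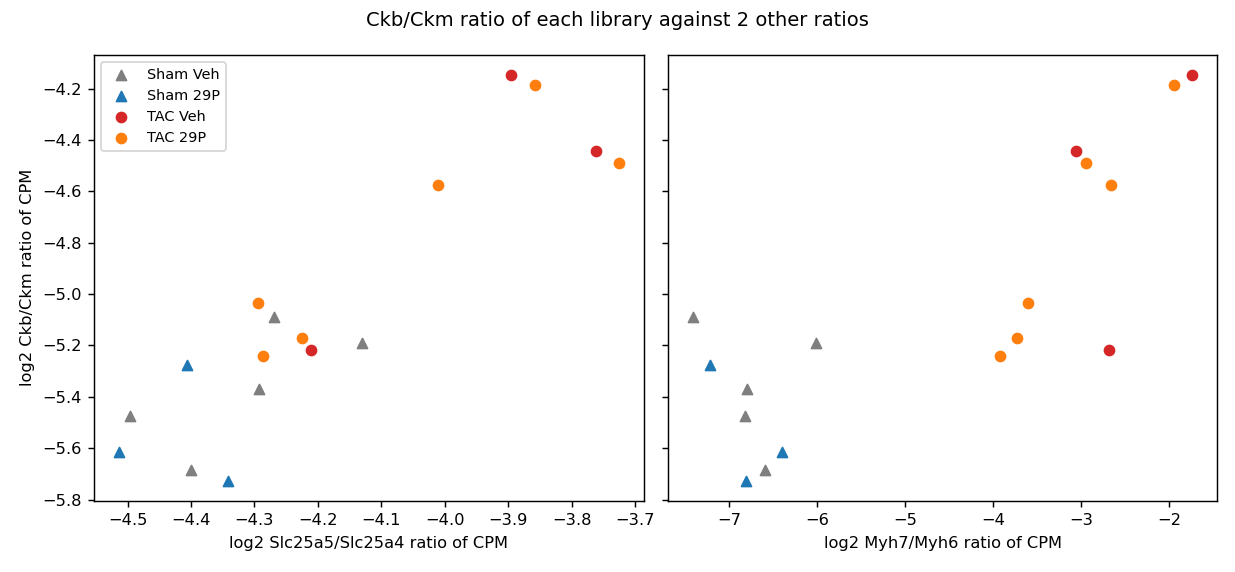
Log2 Ckb/Ckm ratio of each of the 17 libraries (vertical axis) against the log2 Slc25a5/Slc25a4 ratio (left) and the log2 Myh7/Myh6 ratio (right); circles are TAC, triangles Sham, colours the 4 groups. In the left panel 5 TAC circles stand apart at the top right and 4 lie beside the Sham triangles, while in the right panel all TAC circles are to the right of Sham.

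Markers of other cells moved with surgery beside these genes. In bulk tissue, fewer cells of a type and less RNA per cell cannot be told apart. Fibroblast markers summed to 812 to 1475 CPM in Sham and 1498 to 4109 CPM in TAC libraries, with 6 of 8 genes called higher with Veh and 8 of 8 with 29P. Macrophage markers summed to 96.5 to 198 CPM in Sham and 221 to 362 CPM in TAC, and 6 of 6 were called higher in both comparisons. Endothelial markers (1 of 7 with Veh, 5 of 7 with 29P) and smooth muscle and pericyte markers (2 of 6 and 1 of 6) gave fewer calls, and none of the genes in these 4 lists was at 0 in any library. Red blood cell transcripts were called higher with Veh (5 of 5 genes) and not with 29P (0 of 5). Of 12 cardiomyocyte genes, 2 were called higher and 1 lower with Veh, and 3 higher and 1 lower with 29P. Among all genes tested, 22.5% were called higher with Veh and 31.4% with 29P. With TMM factors fewer genes of other cells were called higher with Veh and 29P: 4 and 5 fibroblast, 2 and 5 macrophage, 0 and 0 endothelial, 1 and 1 smooth muscle and pericyte, and 0 and 0 red blood cell genes. Cardiomyocyte genes then gave 0 higher in both and 4 and 3 lower. Of all genes, TMM factors called 3.91% and 6.03% higher and 5.64% and 4.59% lower with Veh and 29P. The part of other cell types in the values of Ckb, Slc6a8, Gamt and Slc25a5 was not tested.

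The wider set of phosphoryl transfer genes was listed to place the 8 among their partners. Of the 36 genes, 29 were tested, and with Veh 5 were called higher and 1 lower, with a median log2 difference of 0.19 against 0.35 for all genes. Among all genes tested, 22.5% were called higher and 1.91% lower with Veh, and 31.4% and 1.12% with 29P. Those higher were Gatm, which starts creatine synthesis (0.90, SE 0.26), the carrier Slc25a24 (0.66, SE 0.19), the AMP deaminase Ampd2 (0.86, SE 0.31) and the AMP kinase subunits Prkaa1 (0.47, SE 0.10) and Prkab2 (0.75, SE 0.12), and the one lower was the outer membrane channel Vdac3 (-0.35, SE 0.09). With 29P, 6 were called higher and 0 lower, with a median of 0.22 against 0.37: Gatm (0.86, SE 0.26), Slc25a23 (0.62, SE 0.19), Ampd2 (1.02, SE 0.30), Prkag3 (0.88, SE 0.21) and the nucleoside diphosphate kinases Nme1 (0.55, SE 0.16) and Nme2 (0.30, SE 0.11), whose reads may be split with the read-through gene Gm20390. With TMM factors the counts were 1 higher and 4 lower with Veh, and 0 higher and 5 lower with 29P. Those factors called 3.91% of all genes higher and 5.64% lower with Veh, and 6.03% and 4.59% with 29P. Prkab2 was the one gene higher with Veh, while Slc25a3, which carries phosphate into the mitochondrion, Vdac1 and Vdac3 were among those lower in both. Ckmt1, Slc25a31, Ak5, Ak8 and Ak9 did not reach the level to be tested, and Ak7 and Ampd1 were not analysed here.

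Nuclear genes of oxidative phosphorylation, which make the ATP that Ckmt2 and Slc25a4 hand on, were counted in the same way. With Veh, 34 of 101 were called lower and 0 higher (median -0.29), and with TMM factors 76 lower. Among all genes tested, 1.91% were called lower with Veh, and 5.64% with TMM factors. With 29P, 2 were called lower and 4 higher (median 0.00), and with TMM factors 26 lower and 0 higher. Of all genes, 1.12% were called lower and 31.4% higher with 29P, and 4.59% and 6.03% with TMM factors. Ckmt2 (-0.11) and Slc25a4 (-0.20) lay above that median with Veh and beside it with 29P.

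Genes with the profile closest to that of Ckb, Ckm, Ckmt2 and Slc25a4 were sought among 8615 genes with a mean of at least 10 CPM, as the root mean square difference of centred log2 CPM over the 17 libraries. Idh3b (0.07 and 0.08) and Sdhb (0.08 for both), subunits of enzymes of the citric acid cycle, were the 2 closest to both Ckmt2 and Slc25a4. Closest to Ckm were Atp5g1, a subunit of ATP synthase (0.097), Mcrip2 (0.097) and 2310061I04Rik (0.102), which were nearly level. The SD of log2 CPM over the 17 libraries was 0.62 for Ckb, 0.32 for Ckm, 0.16 for Ckmt2 and 0.18 for Slc25a4. The genes closest to Ckb were Fam20c, a kinase of the secretory pathway (0.09), Nsmf (0.14) and the TNF receptor Tnfrsf1a (0.14). A difference between 2 genes of 1 library does not depend on its scaling.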

How the data were processed

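Poly(A) RNA of left ventricular apex samples was sequenced, and the 17 libraries that the authors kept are used here. Alignment by the authors used STAR 2.3.7 within Partek Flow and the mm10 build, and they deposited CPM (reads scaled to a common library total) with 0.0001 added for 21798 genes; the counting tool and strand setting are not given in the sources used here. Only 78.7 to 81.5% of low values (under 20 reads) were whole multiples of 1 read within 0.02 read, so no count test was run. Depth was estimated from that step, and precision is limited by 3 to 6 libraries per group. Libraries of a group are taken as separate mice, which the labels do not state, and p-values measure only the spread between them.

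Here, genes with CPM of at least 0.5 in at least 3 libraries (16218) were fitted with limma 3.58.1 (R 4.3.3) on log2 of the deposited CPM, as 4 group means over all libraries with a variance trend, and called at a Benjamini-Hochberg adjusted p of 0.05 over all genes tested. Fold changes of low genes are on this log2 scale. The script was tested on simulated data. Ratios were compared by exact two-sided permutation of libraries, adjusted over 16 tests. TMM factors (30% of log ratios and 5% of levels trimmed) and median-of-ratios factors were computed from the CPM. Levels were divided by the length of the longest APPRIS principal transcript (GENCODE vM21), and coordinates are those of vM21. Promoter sequences are RefSeq's (GRCm38.p6).

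The 8 genes, the marker lists and the gene lists were chosen with earlier results of these data known. Named are the 8 genes, the genes of the phosphoryl transfer list called in a TAC comparison or not measured, and the 3 nearest profiles of 4 of the genes, of which the closest are given.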

Additional observations from a re-analysis of the deposited data

Results flagged for a closer look

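The Gamt/Slc6a8 ratio was noted because the effect of TAC on it went in opposite directions in the 2 treatments. Its log2 difference of TAC from Sham was 0.947 higher with 29P (0.55) than with Veh (-0.40). The exact permutation p over 4704 splits was 0.0128, and 0.0510 after adjustment over the 4 ratios, so it failed the correction. Treatment labels were permuted within each surgery. The p therefore refers to no effect of 29P in either surgery, not to an equal effect of TAC in both treatments. Among Sham 29P libraries the ratio was 2.47% in S4, 1.39% in S14 and 1.34% in S15, and Gamt stood there at 2.54, 0.916 and 1.11 CPM, the lowest levels among the 8 genes. The limma test of the same difference for Gamt alone gave 0.76 (unadjusted p = 0.137). Tests for single outlying libraries, 24 in all, flagged 0. With 3 to 6 libraries per group such tests cannot show that no library is outlying, and each 29P call ended without S14.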

How the results depend on the processing

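Of the 8 genes, the number called higher with Veh was 1 in place of 2 with TMM or median-of-ratios factors, with totals without mitochondrial genes, without the filter on low values and without the libraries holding atrial transcripts, and 0 when the last was joined to TMM factors. The number called lower was 2 with TMM factors (also at an unadjusted p of 0.05) or median-of-ratios factors and 1 with TMM factors without those libraries. Of all 16218 genes, those lower with Veh numbered 915 with TMM factors, 2239 at an unadjusted p of 0.05 and 862 with median-of-ratios factors. With TMM factors without those libraries they numbered 513 of 16004. With 29P the number called higher was 3 in place of 4 with totals without mitochondrial genes, 1 with TMM or median-of-ratios factors, 2 with TMM factors without the libraries holding atrial transcripts, 0 with the run as a covariate and 0 without those libraries and S14. Calls over all genes moved too. Those higher with Veh numbered 634 with TMM factors, 681 with median-of-ratios factors and 1585 with totals without mitochondrial genes, against 3648, each of 16218. They numbered 3106 of 21798 without the filter, 2201 of 16004 without the atrial libraries and 516 of 16004 with TMM factors as well. With 29P they numbered 978 (TMM), 928 (median-of-ratios), 2028 (totals without mitochondrial genes) and 679 (run), against 5097, each of 16218. They numbered 1227 of 16004 with TMM without the atrial libraries and 1329 of 15953 without the atrial libraries and S14. The number of the 8 lower with 29P was 1 with median-of-ratios factors and 2 with TMM factors at an unadjusted p of 0.05. Of all 16218 genes, 805 and 2047 were lower by the same rules. At an unadjusted p of 0.05, 1 of the 8 genes was lower in Sham 29P than in Sham Veh on either scale. Of all 16218 genes, 956 were lower by that rule on CPM and 937 with TMM factors. Slc25a5 in TAC 29P against Sham 29P reversed to -0.00705 with median-of-ratios factors. Leaving out 1 library at a time gave 0 to 2 genes higher with Veh and 0 to 4 with 29P, 0 being reached without S2 and without S14. Calls over all genes fell there too, to 432 of 16135 higher with Veh without S2 and 1044 of 16179 with 29P without S14.

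Of the ratios, Ckb/Ckm differed by 0.98 with Veh with the run as a covariate, which passed at an unadjusted p of 0.05, and with 29P by 0.52 in that fit, by 0.70 without the libraries holding atrial transcripts and by 0.61 without S14 as well, which did not. Slc25a5/Slc25a4 was 0.44 with Veh without those libraries, and with 29P 0.28 with the run, 0.29 without those libraries and 0.32 without S14 as well, none of which passed. Ckmt2/Ckm with 29P was -0.33 with the run. Gamt/Slc6a8 was -0.54 with Veh after adding 1 CPM, which passed, and with 29P 0.48 after adding 0.1, 0.13 after adding 1, 0.47 with the run, 0.52 without the libraries holding atrial transcripts and 0.39 without S14 as well. Leaving out 1 library gave ranges of 0.53 to 1.07 and 0.64 to 0.89 for Ckb/Ckm with Veh and 29P, 0.26 to 0.49 and 0.29 to 0.40 for Slc25a5/Slc25a4, -0.46 to -0.18 for Ckmt2/Ckm with 29P, and -0.50 to -0.28 and 0.39 to 0.83 for Gamt/Slc6a8. For 29P against Veh, Gamt/Slc6a8 ranged from 0.25 to 0.45 in TAC and from -0.88 to -0.45 in Sham. With fewer libraries the smallest exact p rises. The Pearson correlation of Ckb/Ckm with Myh7/Myh6 over the 9 TAC libraries, 0.80 (exact permutation p = 0.0113), was 0.56 without S2 and S3 (exact permutation p = 0.168), and that with Slc25a5/Slc25a4, 0.87 (exact permutation p = 0.00857), was 0.92 without S11 and S18 (exact permutation p = 0.0165). Both are over libraries that lie in 2 sets and are no result within a set. The Spearman values for the same 2 relations in TAC were 0.73 and 0.72, each with an exact permutation p of 0.0737 after adjustment over the 4 relations. Over the 8 Sham libraries the Pearson values were -0.29 (exact permutation p = 0.482) and 0.59 (exact permutation p = 0.126). The causes of these differences were not tested. The alternatives with S14 left out beside the atrial libraries, and with TMM factors beside them, were chosen after seeing the data. Gamt gave no value under the filter of CPM 1 in every library. No paired analysis was possible because each library has its own number and no 2 groups share one.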
